A study of Homo sapiens with 6 samples.

Results

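The p53-induced effectors ZMAT3, AEN, PHLDA3, PERP, TRIAP1, SPATA18, TP53I11 and TP53I13, which carry out different parts of the p53 response, were followed through a time course of p53 activation. They were chosen by name, and each symbol was matched through its Ensembl identifier to 1 row of the count matrix, so that they are 8 of 57905 genes. The cells were HCT116, a human colorectal carcinoma line with intact p53, grown in culture. Nut 0h cells received the vehicle DMSO, and Nut 1h and Nut 10h cells received 10 µM of Nutlin-3a, a small molecule that keeps MDM2 from binding and degrading p53, for 1 h and 10 h. Each condition had 2 biological replicates, which gave 6 RNA-seq libraries, all from 1 cell line, and p53-deficient cells were not analysed here. A bulk library cannot tell fewer expressing cells from less RNA per cell.

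p53 is a transcription factor that is kept at a low level by MDM2 and that accumulates when this interaction is lost. It binds a response element made of adjacent copies of a 10-base consensus (a decamer) and raises transcription of many genes with separate tasks. ZMAT3 is a zinc finger protein that binds RNA and takes part in p53-dependent control of splicing and mRNA stability. AEN is a nuclear exonuclease that degrades DNA and RNA during apoptosis, and PERP is a tetraspan membrane protein of desmosomes with a role in p53-dependent cell death. PHLDA3 consists mainly of a pleckstrin homology domain, competes with the kinase AKT for membrane phosphoinositides and so lowers AKT activity. TRIAP1 is a small mitochondrial protein that works with PRELI-type lipid carriers and is known as a survival factor, whereas SPATA18 (also called MIEAP) acts in the quality control of mitochondria. TP53I11 and TP53I13 were named for their induction by p53, and their functions are less well understood.

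Stretches of the AEN and TRIAP1 promoters are shown because, of the promoter windows available, these were the ones closest to a p53 response element. RefSeq promoter windows (GRCh38.p14), which run from 250 bases before to 50 bases after a transcript's start, were available for 7 of the 8 genes, with 11 windows in all, and PHLDA3 had no entry. The windows were searched on both strands for the p53 consensus decamer, and for 2 decamers side by side without a spacer. Capitals mark the best pair of decamers in each window.
AEN, chr15:88621280-88621339, plus strand: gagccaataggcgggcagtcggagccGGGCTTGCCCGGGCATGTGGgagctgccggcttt
TRIAP1, chr12:120446337-120446356, minus strand: AGGCATGCACGGACATGAAG
The AEN pair lay 34 to 15 bases before the start, and its decamers had 0 and 2 mismatches to the consensus. The TRIAP1 pair lay at positions 29 to 48 after the start, and its decamers had 1 and 3 mismatches. Among 34943 promoter windows of the same length, 0.157% held an adjacent pair with at most 2 mismatches and 0.924% one with at most 4, and 6.64% held at least 1 perfect decamer. No perfect decamer was found in the windows of ZMAT3, PERP, SPATA18, TP53I11 and TP53I13. A match is a description of the letters, and the absence of one covers only these windows.

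The libraries held between 26068076 and 35473485 counts assigned to genes, the lowest of them in a Nut 1h library, and 16565 genes passed the low-count filter of edgeR. Replicates differed from each other by more than sampling noise, and their chi-square over genes was 5.12 to 16.7 times its degrees of freedom. Of 10 markers of colorectal epithelium, 7 were expressed above the filter, among them EPCAM, KRT8 and CDX2, while VIL1, LGALS4 and CDX1 were not. The summed level of these markers was 5218 to 6130 CPM (counts scaled by the library total) with vehicle, 3541 to 3852 after 1 h and 6630 to 7932 after 10 h. Most of this sum came from KRT8 and KRT19, and 2 of the 7 markers went the other way at Nut 1h, EPCAM from 264 and 293 CPM to 395 and 402 and CDH1 from 67.0 and 67.6 to 96.1 and 103. Of 7 measured markers of blood, endothelial and stromal cells, only COL1A1 and PDGFRB passed the filter. COL1A1 was at 38.9 and 42.2 CPM with vehicle, 25.4 and 23.8 after 1 h, and 37.8 and 35.6 after 10 h. PDGFRB was at 0.451 and 0.341 CPM with vehicle, 0.441 and 0.153 after 1 h, and 1.03 and 1.0 after 10 h. The Nut 1h libraries also had a higher mitochondrial share of counts, 8.15% and 8.44%, against 4.99% to 7.06% in the other 4. Across 16137 genes with an annotated transcript, the Nut 1h change fell with the GC content of the longest transcript (Pearson r = -0.689, a description across genes, which are not independent replicates), whereas r was -0.0264 for Nut 10h against Nut 0h. A refit with a GC-content offset, which removes each library's smooth trend with GC content, is therefore given beside the Nut 1h results of the effectors and of the other genes named for a Nut 1h change. What the Nut 1h trend reflects was not tested.

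At Nut 10h, 6 of the 7 effectors that could be tested were higher than at Nut 0h: ZMAT3 rose 4.54-fold, PHLDA3 3.44-fold, TRIAP1 2.36-fold, AEN 1.78-fold, TP53I11 1.51-fold and PERP 1.29-fold. TP53I13 did not pass the test, and SPATA18 had too few counts to be tested. A gene was called where the adjusted p of the quasi-likelihood test in edgeR did not exceed 0.05. Of all 16565 tested genes 29.0% were called in this comparison, 14.1% higher and 14.9% lower. The 7 genes had a median log2 fold change of 0.83, against 0.0002 over all tested genes. The same 6 genes had both Nut 10h libraries above both Nut 0h libraries, an arrangement that 31.0% of tested genes showed in this direction and 30.4% in the opposite one. With the GC-content offset the same 6 were called higher, where 39.1% of all genes were called, 18.8% higher and 20.3% lower. By size of the rise, ZMAT3 ranked 160th and PHLDA3 240th of the tested genes, TRIAP1 565th, AEN 1209th, TP53I11 1980th and PERP 3444th.

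After 1 h the effectors divided into 4 that were higher than at Nut 0h, ZMAT3, TRIAP1, AEN and PERP, and 3 that were lower, PHLDA3, TP53I11 and TP53I13. At this time 66.9% of all tested genes were called, 34.5% higher and 32.3% lower, so that a call by itself sets no gene apart. The groups did not overlap for any of the 7, where 44.2% of all genes were higher and 40.6% lower without overlap. The 4 genes that rose had transcripts of 38.2% to 50.8% GC, and the 3 that fell had 59.0% to 60.4%. With the GC-content offset, which called 46.2% of all genes, 22.7% higher and 23.5% lower, AEN and TRIAP1 were called higher, PERP and TP53I13 lower, and ZMAT3, PHLDA3 and TP53I11 were not called. Between Nut 1h and Nut 10h, 6 of the 7 genes were higher at the later time and PERP was not called, where 67.9% of all genes were called and 34.2% were called higher. Both Nut 10h libraries lay above both Nut 1h libraries for all 7, as they did for 42.1% of all genes, while 42.9% had the opposite order. With the offset AEN was not called in this step and the other 6 were higher, where 58.4% of all genes were called. The median log2 fold change of the 7 genes in this step was 1.28 without the offset, against -0.02 over all tested genes. Over all genes this step rose with GC content (r = 0.61). With the offset the 7 changes ran from 0.12 for AEN to 2.06 for PHLDA3, against a median of -0.0041 over all tested genes.

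**Figure D1:**
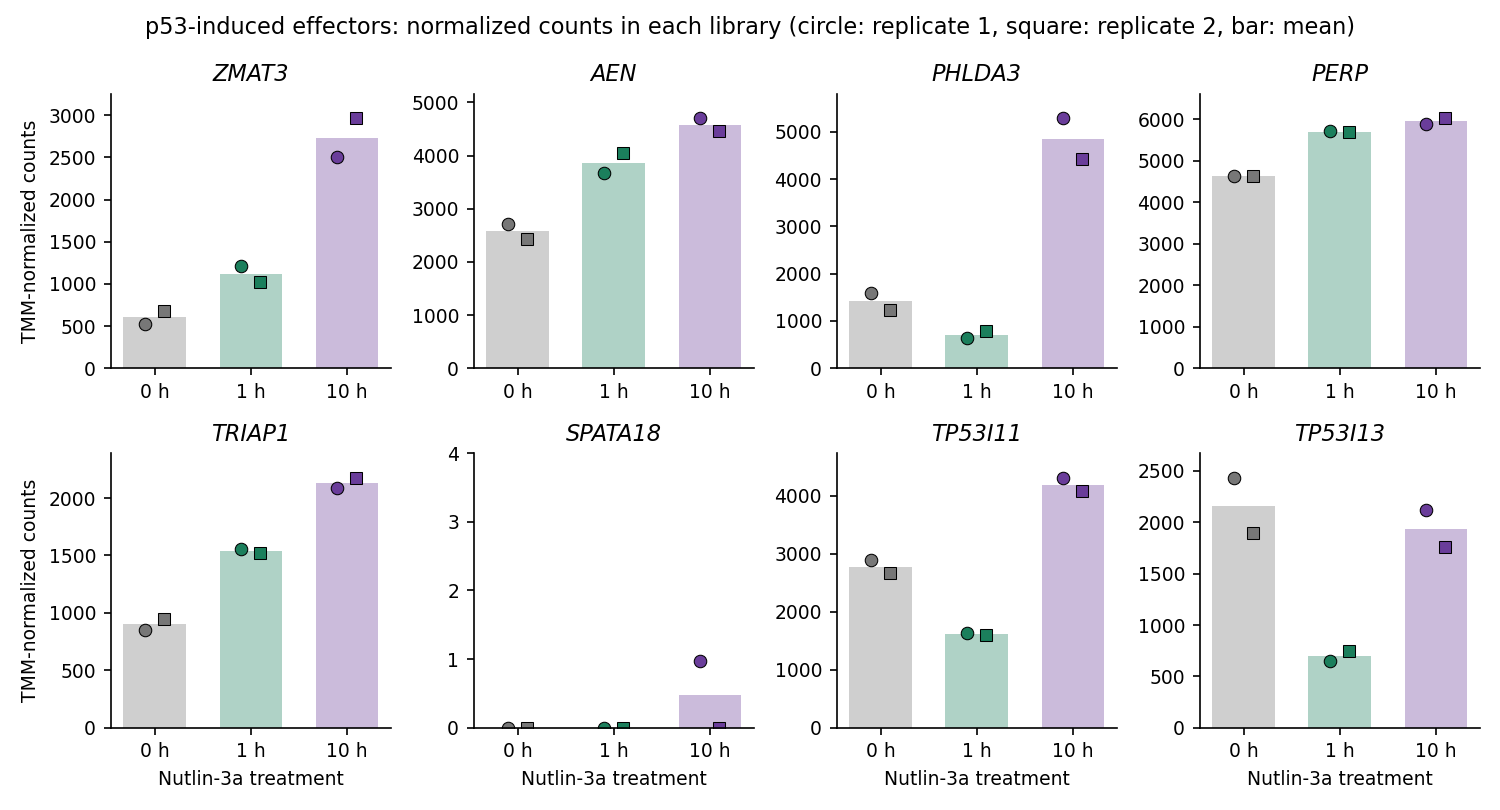
Normalized counts (counts scaled to a common library size by edgeR's TMM factors, vertical axis from 0) of the 8 effectors at 0, 1 and 10 h of Nutlin-3a, with a circle for replicate 1, a square for replicate 2 and a bar for the mean of each condition. ZMAT3, AEN, PERP and TRIAP1 were higher at 1 h and at 10 h than at 0 h, PHLDA3, TP53I11 and TP53I13 were lowest at 1 h, and SPATA18 had a single count in 1 library.

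ZMAT3 (ENSG00000172667), the RNA-binding effector, lies on chromosome 3 at 178677909 to 178790003 of GRCh37, on the minus strand. Its normalized counts (counts brought to a common effective library size by TMM) were 530.5 and 673.3 in the vehicle libraries, 1213 and 1028 after 1 h, and 2503 and 2962 after 10 h. The 3 conditions did not overlap, and each later time was higher than the one before. The means were 601.9 ± 101 (SD, n = 2), 1121 ± 131 and 2732 ± 325. In edgeR the log2 fold change was 0.90 (SE 0.13, adjusted p = 4.2e-05) at Nut 1h and 2.18 (SE 0.13, adjusted p = 2.84e-08) at Nut 10h, both against Nut 0h. Its Nut 1h rise lay close to the median of 0.84 of the tested genes of similar GC content (1 of 10 equal bins of genes), and with the offset it was 0.17 and was not called (adjusted p = 0.144). The Nut 10h rise with the offset was 2.16, and the step from Nut 1h to Nut 10h was 1.28 (SE 0.13, adjusted p = 9.28e-07) without the offset and 1.9995 with it.

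AEN (ENSG00000181026), the apoptosis-enhancing nuclease, lies on chromosome 15 at 89164568 to 89175512, on the plus strand. It had 2713 and 2437 normalized counts with vehicle, 3668 and 4054 after 1 h, and 4698 and 4458 after 10 h. Most of its rise was present at 1 h. The log2 fold change was 0.58 (SE 0.10, adjusted p = 0.00011 in edgeR) at Nut 1h and 0.83 (SE 0.10, adjusted p = 1.85e-05) at Nut 10h. Genes of its GC content had a median Nut 1h change of -0.06, and with the offset AEN rose by 0.69 (adjusted p = 2.36e-06) at Nut 1h and by 0.81 at Nut 10h. The further step of 0.25 from Nut 1h to Nut 10h (SE 0.10, adjusted p = 0.0351) was no longer called with the offset (0.12, adjusted p = 0.167), without Nut 1h replicate 1 (0.17, adjusted p = 0.309), without Nut 1h replicate 2 (0.32, adjusted p = 0.0609) or without Nut 10h replicate 1 (0.25, adjusted p = 0.0783). Of the 6 tested genes with a promoter window, AEN is the one that held the pair of decamers with 0 and 2 mismatches printed above.

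PERP (ENSG00000112378), the desmosomal membrane protein, lies on chromosome 6 at 138409642 to 138428556, on the minus strand. Its normalized counts were 4640 and 4632 with vehicle, 5719 and 5689 after 1 h, and 5898 and 6023 after 10 h. The replicates were close together and the conditions did not overlap, but without the offset the changes were the smallest among the 6 genes called higher at Nut 10h. The log2 fold change was 0.30 (SE 0.09, adjusted p = 0.00751 in edgeR) at Nut 1h and 0.36 (SE 0.09, adjusted p = 0.00625) at Nut 10h, with 0.06 (SE 0.09, adjusted p = 0.529) from Nut 1h to Nut 10h, a step that was 0.67 and called with the offset (adjusted p = 5.34e-07). Genes of its GC content had a median Nut 1h change of 0.67, and with the offset the direction at Nut 1h turned to -0.33 (adjusted p = 0.001), while the Nut 10h change was 0.34. Without any 1 of the 4 libraries compared, the Nut 1h rise of PERP stayed between 0.29 and 0.30 but was no longer called, with adjusted p from 0.0584 to 0.0628.

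PHLDA3 (ENSG00000174307), the AKT antagonist, lies on chromosome 1 at 201433406 to 201438365, on the minus strand. It had 1600 and 1228 normalized counts with vehicle, 638.1 and 782.8 after 1 h, and 5286 and 4430 after 10 h. The Nut 1h libraries were both below the Nut 0h libraries, and the Nut 10h libraries were far above all others. The log2 fold change was -0.996 (SE 0.14, adjusted p = 2.82e-05 in edgeR) at Nut 1h and 1.78 (SE 0.14, adjusted p = 2.53e-07) at Nut 10h, with 2.78 (SE 0.14, adjusted p = 2.26e-09) between Nut 1h and Nut 10h. Genes in its bin of GC content had a median Nut 1h change of -0.84, and with the offset the Nut 1h change of PHLDA3 was -0.24 and just missed the threshold (adjusted p = 0.0508). The later changes with the offset were 1.82 from Nut 0h and 2.06 from Nut 1h. A long noncoding RNA gene (ENSG00000224818) overlaps PHLDA3 on the same strand. It had 587 counts over the 6 libraries against 14451 of PHLDA3, with 28.99 and 29.11 normalized counts with vehicle, 70.23 and 71.74 after 1 h, and 213.7 and 165.6 after 10 h. Unlike PHLDA3 it was higher at 1 h, and its log2 fold changes were 1.28 at Nut 1h (adjusted p = 0.00037, and 1.1 with the offset) and 2.7 at Nut 10h (adjusted p = 3.93e-07). How reads shared by the overlapping genes were counted is not given in the sources used here.

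TRIAP1 (ENSG00000170855), the mitochondrial survival factor, lies on chromosome 12 at 120881767 to 120884187, on the minus strand. Its normalized counts were 853.3 and 950.3 with vehicle, 1558 and 1525 after 1 h, and 2089 and 2174 after 10 h. It rose at each step without overlap between conditions. The log2 fold change was 0.77 (SE 0.10, adjusted p = 9.79e-06 in edgeR) at Nut 1h, 1.24 (SE 0.10, adjusted p = 3.07e-07) at Nut 10h, and 0.47 (SE 0.10, adjusted p = 0.000594) from Nut 1h to Nut 10h. Genes of its GC content had a median Nut 1h change of 0.17. TRIAP1 was called higher in all 3 comparisons with the offset as well, by 0.51, 1.22 and 0.71, and it was the only 1 of the 7 tested genes for which that held. AEN and TRIAP1 were thus the pair called higher at Nut 1h both without and with the offset.

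SPATA18 (ENSG00000163071), the other mitochondrial gene, lies on chromosome 4 at 52917470 to 52963465, on the plus strand. It had 0 counts in 5 libraries and 1 count in Nut 10h replicate 1. At these depths, 0 counts allow a level of up to 3 counts, which is 0.0846 to 0.115 CPM depending on the library and covers counting error only. Any difference of SPATA18 between the conditions was not detectable at this depth, and no fold change is given.

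TP53I11 (ENSG00000175274) lies on chromosome 11 at 44907454 to 44972857, on the minus strand. Its normalized counts were 2884 and 2672 with vehicle, 1636 and 1598 after 1 h, and 4302 and 4075 after 10 h. Like PHLDA3 it was lowest at 1 h and highest at 10 h. The log2 fold change was -0.78 (SE 0.09, adjusted p = 5.5e-06 in edgeR) at Nut 1h and 0.59 (SE 0.09, adjusted p = 0.000211) at Nut 10h, with 1.37 (SE 0.09, adjusted p = 2.43e-08) between Nut 1h and Nut 10h. Genes in its bin of GC content, the same as that of PHLDA3, had a median Nut 1h change of -0.84. With the offset the Nut 1h change was 0.03 (adjusted p = 0.77), and the changes to Nut 10h were 0.63 from Nut 0h and 0.60 from Nut 1h. TSPAN18, a tetraspanin gene on the opposite strand, overlaps TP53I11 and changed by -0.45 at Nut 1h (adjusted p = 0.00152, and with the offset 0.15 without a call), with 0.42 after 10 h (adjusted p = 0.00659). Whether the counting used the strand is not given in the sources used here, so that reads of the overlap cannot be assigned with certainty.

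TP53I13 (ENSG00000167543) lies on chromosome 17 at 27893070 to 27900175, on the plus strand. It had 2430 and 1896 normalized counts with vehicle, 649.1 and 751.3 after 1 h, and 2118 and 1760 after 10 h. The Nut 0h and Nut 10h libraries overlapped, while both Nut 1h libraries were well below them. At Nut 1h TP53I13 fell by 1.63 on the log2 scale (SE 0.14, adjusted p = 3.55e-07 in edgeR), the largest fall among the 7 tested genes, and by 0.76 with the offset (adjusted p = 5.01e-06). From Nut 1h to Nut 10h it rose by 1.47 (SE 0.14, adjusted p = 4.3e-07), and by 0.65 with the offset. At Nut 10h the log2 fold change against Nut 0h was -0.16 (SE 0.13, adjusted p = 0.395), and it was 0.03 without Nut 0h replicate 1, the higher of the Nut 0h libraries. ABHD15, on the opposite strand, overlaps TP53I13 and had log2 fold changes of -0.99 at Nut 1h (adjusted p = 5.23e-06, and -0.47 with the offset) and -0.11 at Nut 10h (adjusted p = 0.486).

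**Figure D2:**
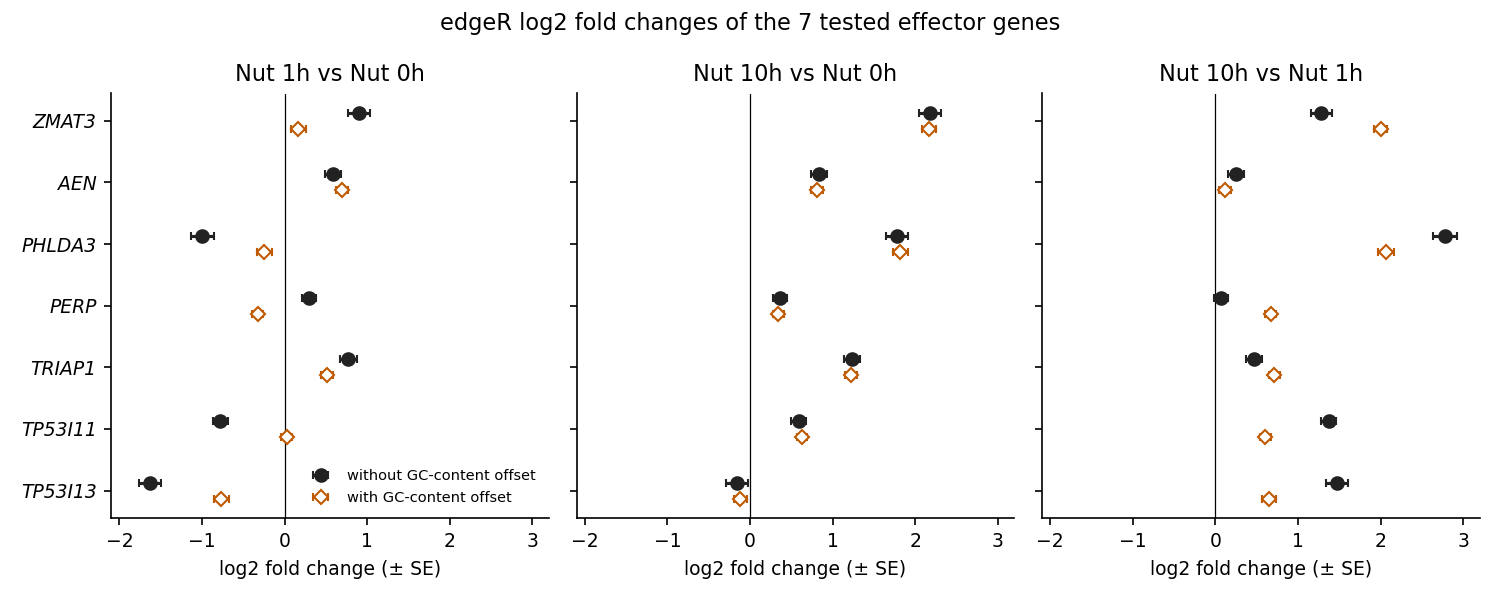
log2 fold changes (horizontal axis, with bars of 1 SE from edgeR's quasi-likelihood fit) of the 7 tested effectors in the 3 comparisons, without (filled circles) and with (open diamonds) the GC-content offset. The 2 values lie close together at Nut 10h against Nut 0h, where 6 genes lie above 0 in both fits, and they differ in the comparisons that involve Nut 1h, where PERP changed from 0.30 to -0.33 and TP53I11 from -0.78 to 0.03.

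**Figure D3:**
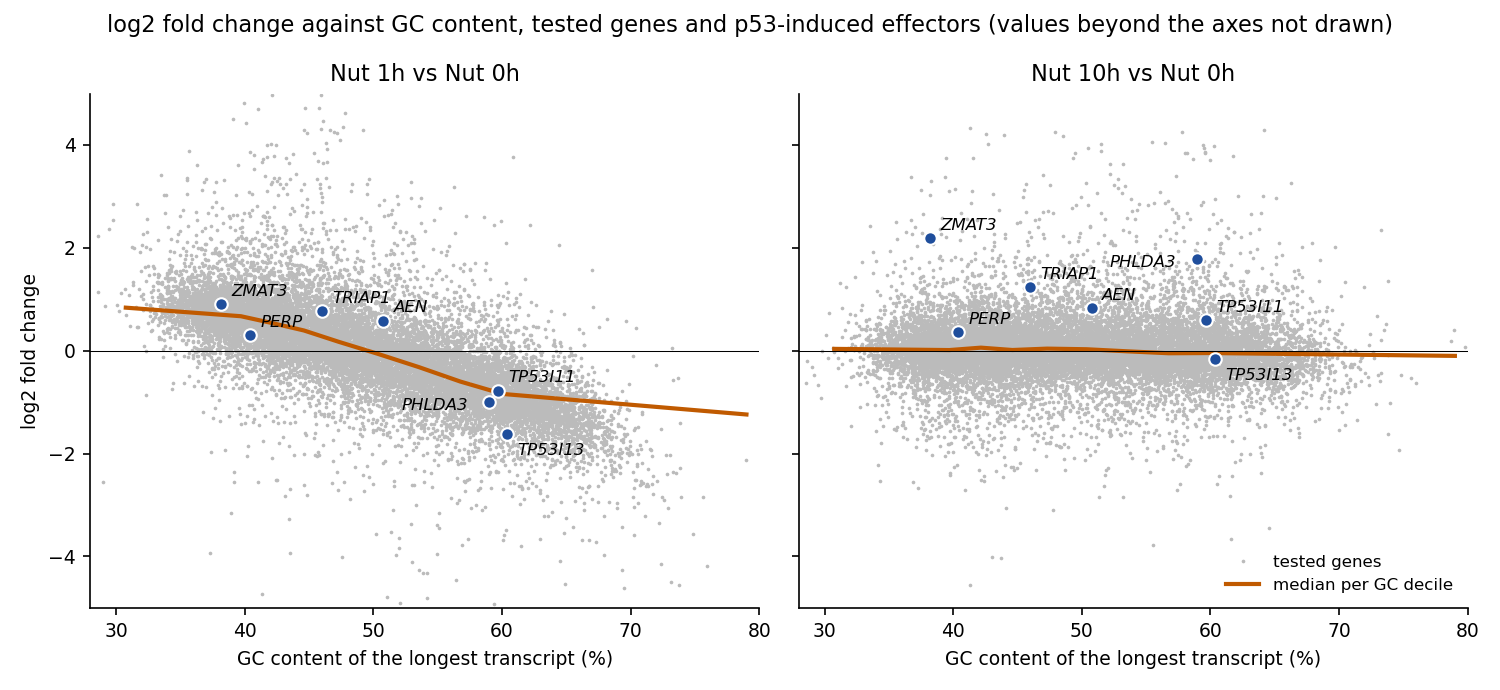
log2 fold change against the GC content of the longest transcript (in percent) for the tested genes (grey), with the median in each of 10 bins of genes by GC content (line) and the 7 tested effectors (blue). At Nut 1h (left) the medians fall from 0.84 in the bin lowest in GC content to -1.24 in the highest and TRIAP1 and AEN lie furthest above the medians of their bins, whereas at Nut 10h (right) the medians lie between -0.10 and 0.06.

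Levels of different genes were compared only per length, in TPM (counts per length of the union of a gene's exons, scaled to the same total in each library). At Nut 0h PERP was highest at 111 TPM ± 1.71 (SD, n = 2), followed by TRIAP1 at 64.2, TP53I13 at 47.4, PHLDA3 at 43.7, AEN at 43.2, TP53I11 at 37.9 and ZMAT3 at 5.35. PHLDA3 overlapped both of its neighbours in this order, TP53I13 and AEN, and the other neighbours were apart in both libraries. At Nut 10h TRIAP1 (148 TPM ± 9.46), PHLDA3 (146 ± 13) and PERP (139 ± 7.04) stood at the top, and PHLDA3 overlapped both of the others. They were followed by AEN at 75.0, TP53I11 at 55.8, TP53I13 at 41.5 and ZMAT3 at 23.7 TPM. ZMAT3, which had the largest fold change of the 7 genes from Nut 0h to Nut 10h, had the lowest level per length of the 7 genes at Nut 0h, Nut 1h (10.4 TPM) and Nut 10h. The order depended partly on the length used. With the length of the longest transcript, ZMAT3 was again lowest and PERP again highest at Nut 0h, but TP53I13 at 65.4 and TRIAP1 at 58.6 TPM changed places and overlapped. TP53I11 at 56.1 TPM then stood above PHLDA3 at 38.4 and AEN at 38.2. At Nut 10h TP53I11 at 83.6 TPM stood above AEN at 67.1, and PHLDA3 at 130 TPM no longer overlapped PERP at 105.

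**Figure D4:**
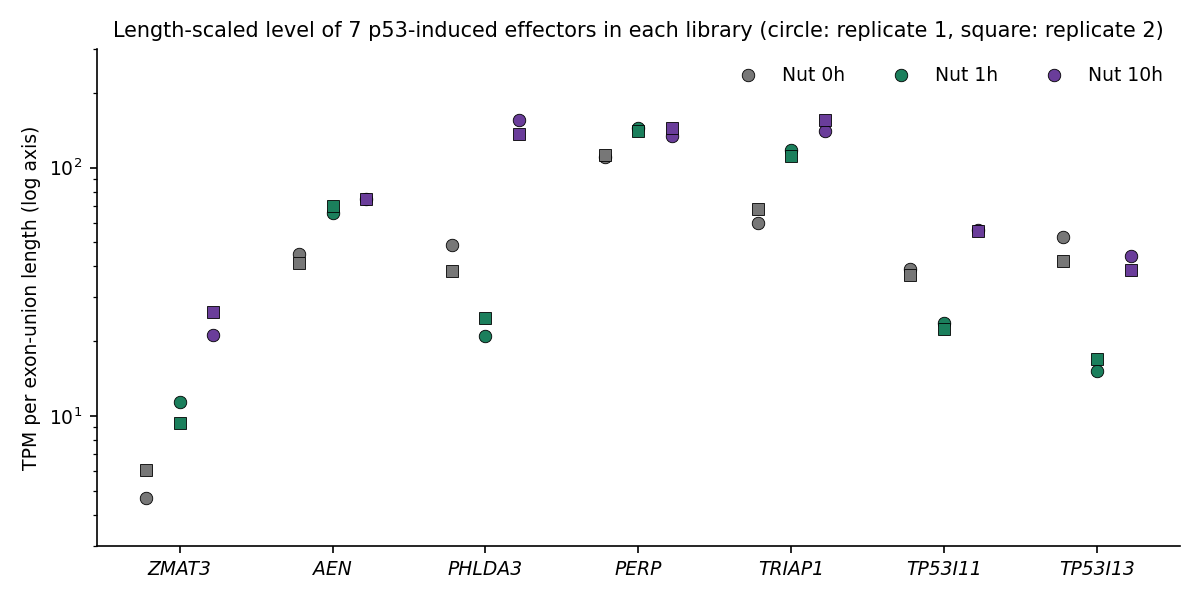
Level per exon length (TPM, log axis) of the 7 effectors with counts in several libraries, with circles for replicate 1 and squares for replicate 2 of each condition. ZMAT3 is lowest in every library, from 4.66 to 26.3 TPM, and PHLDA3 shows the widest range, from 21.0 to 156 TPM.

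The 8 genes were set beside 30 other genes known to be induced by p53, a list chosen from general knowledge with earlier results of these data known. Of these, 29 were tested, and EDA2R, a receptor gene of the TNF receptor family, was too low. At Nut 10h all 29 were called higher than at Nut 0h, where 14.1% of all tested genes were, with a median log2 fold change of 1.89. The largest rises were those of TP53I3, an oxidoreductase gene (4.01, adjusted p = 1.03e-10), CDKN1A, which encodes the cyclin-dependent kinase inhibitor p21 (3.84), and MDM2 (3.75). Among the effectors ZMAT3 at 2.18 lay above this median, and PHLDA3 at 1.78, TRIAP1, AEN, TP53I11 and PERP lay below it.

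At Nut 1h 14 of the 29 genes were higher and 8 lower than at Nut 0h, with a median of 0.29, where 34.5% of all tested genes were higher and 32.3% lower. MDM2 rose by 2.19, PMAIP1, which encodes the BH3-only protein NOXA, by 1.52 and TP53INP1, an autophagy and stress gene, by 1.39, and with the GC-content offset these rises were 1.52, 0.71 and 0.71. GDF15, a secreted stress cytokine, fell by 1.35 on the log2 scale, NINJ1, a membrane protein of cell rupture, by 1.24, and BBC3, which encodes the BH3-only protein PUMA, by 0.97. With the offset 17 were higher and 3 lower, where 22.7% of all genes were higher and 23.5% lower. GDF15 was then at -0.17 and no longer called (adjusted p = 0.0629), and NINJ1 at -0.63. Of the 8 genes called lower, 5 were called higher with the offset, namely BBC3 (0.75), TP53I3 (0.45), FDXR (0.37), SESN2 (0.21) and BAX (0.21). From Nut 1h to Nut 10h, 28 of the 29 were higher, where 34.2% of all genes were, and PMAIP1 was lower (-0.91, adjusted p = 1.09e-06), a fall that was not called with the offset (-0.12, adjusted p = 0.19). The largest steps were those of GDF15 (4.35), TP53I3 (4.35) and CDKN1A (3.79), and with the offset they were 3.24, 3.59 and 3.15. All comparisons against Nut 0h share the same control libraries.

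**Figure D5:**
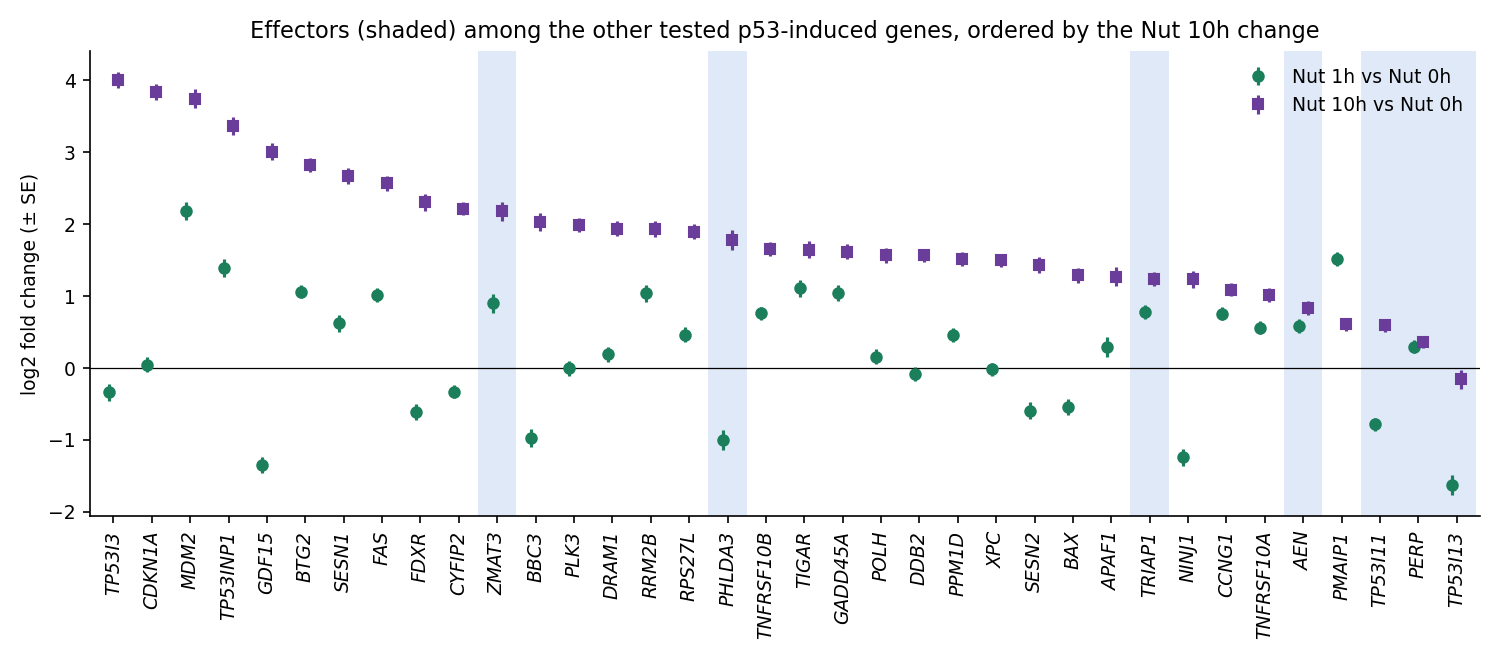
log2 fold changes against Nut 0h (vertical axis, with bars of 1 SE) at Nut 1h (circles) and Nut 10h (squares) of the 7 tested effectors (shaded) and 29 other p53-induced genes, ordered from left to right by the Nut 10h change. The Nut 10h changes run from 4.01 for TP53I3 to -0.16 for TP53I13, and the Nut 1h changes lie on both sides of 0.

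The genes next to the effectors in the genome were looked at because neighbours can share regulatory DNA. Of the 16 nearest protein-coding genes on either side, 15 were tested. At Nut 10h 1 was called higher, CD82, and 1 lower, CSRP1 (-0.32, adjusted p = 0.0287), where 14.1% of all tested genes were higher and 14.9% lower. CD82, a tetraspanin gene that lies 265546 bases from TP53I11, had 344.0 and 276.1 normalized counts with vehicle, 204.7 and 216.5 after 1 h, and 1919 and 1760 after 10 h. These counts were lowest at 1 h and highest at 10 h, as those of TP53I11 were. Its Nut 1h change was -0.56 (adjusted p = 0.00225), and 0.15 with the offset (adjusted p = 0.257), and its rise at Nut 10h was 2.57 on the log2 scale (adjusted p = 4.08e-09). GATC, which encodes a subunit of a mitochondrial amidotransferase, starts 60 bases from TRIAP1 on the opposite strand. It had 835.9 and 868.6 normalized counts with vehicle and 926.2 and 1197 after 10 h, a log2 fold change of 0.32 that missed the threshold (adjusted p = 0.0603), beside 1.24 for TRIAP1, and with the offset it was 0.30 and called (adjusted p = 0.0149). With the offset 4 neighbours were called higher and 2 lower at Nut 10h, where 18.8% and 20.3% of all genes were. At Nut 1h 6 of the 15 neighbours were called higher and 5 lower, where 34.5% and 32.3% of all genes were. With the offset 2 were higher and 6 lower, where 22.7% and 23.5% of all genes were. GIT1, a signalling adaptor gene 318 bases from TP53I13, had a Nut 1h change of -1.29 (adjusted p = 6.11e-07, and -0.20 with the offset), beside -1.63 for TP53I13. COX6A1, a subunit gene of cytochrome c oxidase 3227 bases from TRIAP1, changed in the opposite direction to TRIAP1 at Nut 1h (-0.80, adjusted p = 3.62e-06, and -1.41 with the offset). ISG20, an exonuclease gene 3389 bases from AEN and related to it, had a log2 fold change of 0.03 at Nut 10h (adjusted p = 0.922).

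For each tested effector, the genes with the most similar profile were sought among 11569 other genes with at least 100 normalized counts on average. They were those with the smallest Euclidean distance between mean-centred log2(CPM + 1) values over the 6 libraries, with CPM scaled by TMM factors. For ZMAT3 they were RP11-115D19.1 (distance 0.248) and SLC44A5, a choline transporter-like gene (0.301). For AEN they were ATXN3 (0.154) and FBXW7 (0.178), and for TRIAP1 FAM83H-AS1 (0.116) and CLN8 (0.12). PERP was closest to KIFAP3 (0.0707) and PIP5K1A (0.0717). PHLDA3 was closest to EPS8L2 (0.239) and BBC3 (0.286), of which BBC3 belongs to the p53-induced list and had log2 fold changes of -0.97 at Nut 1h and 2.03 at Nut 10h. TP53I11 was closest to TOM1L2 (0.0912) and PHLDB1 (0.1), and TP53I13 to ZC3H3 (0.0878) and MAP2K2 (0.0975). The distances are descriptions over 6 libraries, and the profiles share the libraries and the Nut 1h trend with GC content.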

How the data were processed

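RNA-seq counts of 6 HCT116 libraries were analysed, with conditions and replicate numbers taken from the sample labels. Reads were trimmed by the authors (Trim Galore 0.6.6), aligned to GRCh37 (STAR 2.7.0f) and counted per gene (featureCounts, Subread 2.0.0), and the deposited file holds raw counts. The strand setting and the treatment of reads mapping to several places are not given in the sources used here. The authors' table of comparisons holds fold changes and p-values from DESeq2 1.36.0 and was read only for the pairs of identifier and symbol.

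Genes were filtered with filterByExpr, normalized by TMM and tested with edgeR 4.0.16 (quasi-likelihood, limma 3.58.1, R 4.3.3) over all 6 libraries with only the condition in the design and 3 residual degrees of freedom. Benjamini-Hochberg adjustment was over all tested genes. A standard error is the size of the log2 fold change divided by the square root of F. The GC-content offset was a loess trend (span 0.4) of each library, and GENCODE lifted to GRCh37 gave coordinates, lengths and the GC content of 97.4% of tested genes. DESeq2 1.42.0, other scalings, filters and thresholds, a replicate block and leaving out each library were alternatives. Totals lay between 26068076 and 35473485 counts, and replicates differed by more than sampling noise.

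The effectors and lists were chosen with earlier results of these data known. Named are all 8 effectors, the 3 largest rises and falls called in each list and comparison, the 2 genes of closest profile, and overlapping or adjacent genes. Of the adjacent genes only some are named, and these, with FDXR, SESN2, BAX and EDA2R, were picked after their values were seen. For 3 listed genes the symbol of the file is an older one, and they were matched by identifier.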

Additional observations from a re-analysis of the deposited data

Results flagged for a closer look

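PHLDA3 and TP53I11 stood out among the effectors because both libraries of 1 time point moved one way from Nut 0h and both libraries of the other time point moved the opposite way, and because the direct comparison of the time points passed edgeR's quasi-likelihood test. For PHLDA3 the difference between Nut 10h and Nut 1h was 2.78 on the log2 scale, and 2.06 with the GC-content offset. For TP53I11 it was 1.37, and 0.60 with the offset. The falls at Nut 1h were not called with the offset, and their relation to the GC-content trend was not tested further. The order is not particular to them, since 8 of the 29 other p53-induced genes, and CD82 beside TP53I11, were also called lower at Nut 1h and higher at Nut 10h without the offset. Of all tested genes 32.3% were called lower at Nut 1h and 14.1% higher at Nut 10h. The share with both calls was not counted, so the 8 of 29 cannot be set against it.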

How the results depend on the processing

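With 2 libraries per condition and 3 residual degrees of freedom, p-values rest on a spread shared between genes, and a lone library is assumed to vary like the others when its partner is left out. The 6 rises at Nut 10h kept their direction and their call in every alternative except the fold change threshold. With the GC-content offset (values with the replicate block added are the same to within 0.01), the Nut 1h log2 fold change was 0.17 for ZMAT3, -0.24 for PHLDA3, -0.33 for PERP and 0.0267 for TP53I11 (0.0266 with the block), and the change from Nut 1h to Nut 10h was 0.12 for AEN and 0.67 for PERP. The offset left 2 effectors higher and 2 lower at Nut 1h (22.7% and 23.5% of all genes were), 3 other p53-induced genes lower at Nut 1h and 0 lower from Nut 1h to Nut 10h, and 4 relatives, partners and desmosome genes higher at Nut 1h. It turned BBC3 (0.75), AKT1 (0.30), PKP3 (0.13) and PRELID3B (-0.20) at Nut 1h, and PHLDA2 (-0.0398, and -0.0444 with the block), AKT2 (-0.20), PKP3 (-0.20), PRELID3B (0.23) and DSC2 (0.22) from Nut 1h to Nut 10h.

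With a required absolute log2 fold change of at least 1, values stayed as they were but calls were lost at Nut 1h for ZMAT3 (0.90), AEN (0.58), PHLDA3 (-0.996), PERP (0.30), TRIAP1 (0.77) and TP53I11 (-0.78), at Nut 10h for AEN (0.83), PERP (0.36) and TP53I11 (0.59), and from Nut 1h to Nut 10h for AEN (0.25) and TRIAP1 (0.47). This left 0 effectors higher and 1 lower at Nut 1h (10.1% and 13.9% of all genes were), and 3 higher at Nut 10h (3.74% were). Of the other p53-induced genes it left 8 higher and 2 lower at Nut 1h and 0 lower from Nut 1h to Nut 10h. Of the relatives, partners and desmosome genes it left 1 higher and 5 lower at Nut 1h. At Nut 10h it left 2 of them higher and 0 lower (3.74% and 3.11% of all genes were). From Nut 1h to Nut 10h it left 3 of them higher and 0 lower (16.4% and 12.3% of all genes were). DESeq2 called 5 of the last group lower from Nut 1h to Nut 10h, and without a low-count filter the same step of AEN was 0.24 (adjusted p = 0.0513).

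Leaving out each library in turn gave 0.17 to 0.33 for AEN from Nut 1h to Nut 10h, 0.26 to 0.30 for PERP at Nut 1h and -0.33 to 0.0311 for TP53I13 (the latter without Nut 0h replicate 1) at Nut 10h. Relatives, partners and desmosome genes then numbered 3 to 5 higher and 3 to 7 lower at Nut 10h, and 4 to 7 lower from Nut 1h to Nut 10h.

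The labels do not say what a replicate number shares between conditions. The deviations of same-numbered libraries correlated for Nut 0h and Nut 10h (r = 0.446) but ran opposite for Nut 0h and Nut 1h (-0.309) and for Nut 1h and Nut 10h (-0.279), so that the numbers were not used as pairs. A replicate block changed none of the calls of the effectors or of the largest rises and falls named for each list and comparison. Other calls reported for named genes were not compared with the block. Over the whole table, calls were counted for Nut 1h against Nut 0h, Nut 10h against Nut 0h and Nut 10h against Nut 1h. In that order, the genes called numbered 10979, 4893 and 11189 with the block, against 11077, 4810 and 11246 without it. With the Nut 1h numbers exchanged, an alternative chosen after seeing the data, they numbered 12131, 7631 and 12373.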

Other observations

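Relatives of the effectors were measured beside them, of which the ZMAT genes were taken by name, and no protein sequences were compared. Of 9 relatives, 7 were tested, and at Nut 10h 1 was called higher than at Nut 0h, PHLDA1, a pleckstrin homology-like protein related to PHLDA3 (log2 fold change 0.53, adjusted p = 0.000806 in edgeR), where 14.1% of all tested genes were called higher. PHLDA2 was at -0.24 on the same scale (adjusted p = 0.211), and the zinc finger genes ZMAT2 and ZMAT5 had 0.17 and 0.24, both without a call. At Nut 1h, where 34.5% of all genes were higher and 32.3% lower, 2 relatives were higher, ZMAT1 (1.33) and ZMAT2 (0.55), and 4 were lower, among them ZMAT5 (-1.28), PHLDA2 (-1.22) and ISG20 (-0.88). With the GC-content offset these were 0.55 for ZMAT1 (adjusted p = 0.167) and -0.15 for PHLDA2 (adjusted p = 0.137), both without a call, and 0.26 for ZMAT2, -0.68 for ZMAT5 and -0.59 for ISG20. From Nut 1h to Nut 10h, where 34.2% of all genes were higher and 33.7% lower, 4 relatives were higher, among them ZMAT5 (1.53, and 0.96 with the offset), PHLDA2 (0.98, and -0.04 with the offset) and ISG20 (0.91, and 0.63 with the offset), and 2 were lower, ZMAT1 (-0.95) and ZMAT2 (-0.38), neither of them called with the offset. The fall of ZMAT1 was also not called with DESeq2 (-0.93, adjusted p = 0.154). Leaving out each library in turn gave -1.15 to -0.71 for ZMAT1 and -0.45 to -0.29 for ZMAT2.

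Among 9 genes whose products work with or against the effectors, 1 was higher and 4 were lower at Nut 10h than at Nut 0h, where 14.1% of all tested genes were higher and 14.9% lower. APAF1, the scaffold of the apoptosome and itself a p53-induced gene, rose by 1.27 on the log2 scale (adjusted p = 5.31e-06). AKT1, the kinase that PHLDA3 opposes, fell by 0.51 (adjusted p = 0.00311). PRELID1, a lipid carrier that works with TRIAP1, fell by 0.48 (adjusted p = 0.00799), and was not called without Nut 0h replicate 1 (-0.36, adjusted p = 0.0661) or without Nut 10h replicate 2 (-0.32, adjusted p = 0.0687). PRELID3A, of the same family, fell by 0.98 (adjusted p = 0.00174). At Nut 1h 1 of the 9 was higher, PRELID3B (0.66, and -0.20 with the GC-content offset), and 4 were lower, among them PRELID1 (-1.43), BNIP3 (-0.71) and AKT1 (-0.70, and 0.30 with the offset), where 34.5% of all genes were higher and 32.3% lower. PRELID1 was at -0.81 and BNIP3 at -0.55 with the offset. From Nut 1h to Nut 10h 4 of the 9 were higher, among them APAF1 (0.98, and 1.49 with the offset), PRELID1 (0.95, and 0.36 with the offset) and AKT2, another AKT kinase (0.45, and -0.20 with the offset), and 2 were lower, PRELID3A (-0.62, and -1.32 with the offset) and PRELID3B (-0.61, and 0.23 with the offset).

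Of 10 desmosome genes, listed because PERP is a part of desmosomes, 8 were tested, and 4 were higher and 1 lower at Nut 10h, where 14.1% of all tested genes were higher and 14.9% lower. The cadherin gene DSC3 rose by 1.31 (adjusted p = 1.82e-06). DSC2 (0.35, adjusted p = 0.0208) and JUP, which encodes plakoglobin (0.32, adjusted p = 0.0382), rose less at Nut 10h, and each lost its call in 4 of the 6 fits that left out 1 library, with adjusted p up to 0.164 for DSC2 and 0.26 for JUP. The rise of JUP was also not called with DESeq2 size factors (adjusted p = 0.0583) or with only the 2 conditions compared in the fit (adjusted p = 0.063). PKP4, a plakophilin gene, was lower (-0.38, adjusted p = 0.00461). At Nut 1h 4 were higher and 2 lower, where 34.5% of all genes were higher and 32.3% lower. DSC3 (0.84), DSC2 (0.81) and DSP, which encodes desmoplakin (0.52), rose, and with the offset DSC3 (0.15) and DSC2 (0.11) were not called and DSP was at 0.38. PKP3 (-1.30) and JUP (-1.26) fell, and with the offset PKP3 was at 0.13 without a call and JUP at -0.31. From Nut 1h to Nut 10h, where 34.2% of all genes were higher and 33.7% lower, 3 were higher, JUP (1.58, and 0.68 with the offset), PKP3 (1.13, and -0.20 with the offset) and DSC3 (0.46, and 1.13 with the offset), and 4 were lower, among them PKP4 (-0.53, and -0.37 with the offset), DSP (-0.47, and -0.37 with the offset) and DSC2 (-0.46, and 0.22 with the offset).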
